A study of Mus musculus with 310 samples.

Results

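The genes described are 9 genes through which basal keratinocytes hold on to the basement membrane, of 14068 genes in the table: Itga6, Itgb4, Col17a1, Dst, Plec, Itgb1, Itga3, Lama3 and Lamb3. They were chosen by name, as the hemidesmosome, laminin-332 and basal integrin genes, and all 9 were in the table and passed the filter on low counts in both comparisons below. The data were estimated read counts per gene in 310 samples, taken here as single keratinocytes of mouse tail epidermis. They were sorted for tdTomato and sequenced by a Smart-seq2 protocol along the length of the transcript.

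All mice carried Lrig1-EGFP-ires-CreERT2 and Rosa26-fl/STOP/fl-tdTomato on a CBA C57BL/6 mixed background, and all received hydroxytamoxifen once on the tail skin. The red label therefore marks cells that expressed Lrig1, a gene of stem cells at the junctional zone of the hair follicle, at the time of labelling, and their progeny. The study compared repaired with age-control skin in aged mice. Every cell carries the same time label, 38 weeks, and the labels do not give the event from which it was counted. The labels give the groups as 38w (145 cells, replicates RepI and RepL) and 38wUW (165 cells, replicates RepM and RepN), and they do not say which of them had been wounded. Every difference is given as 38w against 38wUW, and its relation to wounding is open. The study describes its single-cell data as an integration of independent experiments, each with several biological replicates, and the sources used here do not tie the labelled replicates to mice or pools.

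A hemidesmosome is a rivet-like junction between the keratin filaments of a basal keratinocyte and the basement membrane beneath it. Integrin alpha 6 beta 4 (Itga6, Itgb4) and collagen XVII (Col17a1) span the membrane. Inside the cell, plectin (Plec) and the epithelial form of dystonin, also called BPAG1e (Dst), tie them to keratins. Outside, they bind laminin-332, whose chains include those encoded by Lama3 and Lamb3. Integrin alpha 3 beta 1 (Itga3, Itgb1) also binds laminin-332 but joins the actin cytoskeleton at focal adhesions. Loss of hemidesmosome or laminin-332 proteins causes blistering skin diseases (epidermolysis bullosa), and keratinocytes lower them as they leave the basal layer.

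Reads per cell ranged from 11703 to 721532, with a median of 61288, and the replicate sums ranged from 5471194 to 12945796 reads. RepI lay on plates C114 (53 cells) and C118 (17 cells), and these plates stood far apart. The median share of reads from ribosomal protein genes was 31.9% on C114 and 3.61% to 6.86% on the other 4 plates, and the median mitochondrial share was 2.77% on C114 and 33.8% on C118. The names of 15 cells carried an unexplained suffix, and 11 wells of C114 were named by 2 cells each. In 2 of the 15 the suffix was MBULK. The study also made mini-bulk libraries of many cells, so these 2 may not be single cells. Keratinocyte markers were plentiful: the 5 basal markers (Krt14, Krt5, Trp63, Thbs1, Ly6a) summed to between 1858 and 22393 CPM (counts scaled to a common library total) in the 4 replicates. Of the markers of other cell types, fibroblast genes (4 of 5 in the table) summed to 8.27 to 62.7 CPM, and Ptprc, the 1 of 5 immune markers in the table, to 0.514 to 1.72 CPM. Melanocyte genes (2 of 4) summed to 7.10 to 14.8 CPM. Pecam1, the 1 of 3 endothelial markers in the table, had a read in 100% of cells at 1263 to 8774 CPM, so it could not serve as a marker here. The part of these differences in the results was not tested.

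To show what lies upstream of members that vary together across cells, the 250 bases before the start were taken from RefSeq (GRCm38.p6) for Col17a1 and Itgb1, the 2 members with a single annotated start among the 5 with a window at hand. The Col17a1 window is chr19:47692043-47692292 (minus strand) and the Itgb1 window chr8:128685404-128685653 (plus strand). Capitals mark the letters TATAAA, searched on both strands.
Col17a1: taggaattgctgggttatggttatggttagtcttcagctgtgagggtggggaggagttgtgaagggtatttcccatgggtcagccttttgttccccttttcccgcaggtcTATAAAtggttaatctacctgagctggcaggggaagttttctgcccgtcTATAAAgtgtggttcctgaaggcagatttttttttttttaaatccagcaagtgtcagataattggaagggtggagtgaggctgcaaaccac
Itgb1: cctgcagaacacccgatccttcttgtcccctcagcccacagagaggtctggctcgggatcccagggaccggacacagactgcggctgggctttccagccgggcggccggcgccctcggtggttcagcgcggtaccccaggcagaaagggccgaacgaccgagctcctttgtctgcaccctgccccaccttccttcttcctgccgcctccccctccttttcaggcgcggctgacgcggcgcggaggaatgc
The Col17a1 window holds TATAAA 2 times, starting 140 and 91 bases before the start annotated in RefSeq, and 46.0% of its bases are G or C. The gene span given below for Col17a1 begins at chr19:47692094 on the minus strand, inside this window. The distances therefore depend on the start used. The Itgb1 window holds none and is 68.0% G or C. Over all 32851 windows of this length, 12.4% held TATAAA on either strand and the median G or C share was 52.4%. The AP-1 letters TGANTCA were in none of the 8 windows of the 5 members and in 6.75% of all windows. No match says only that the letters are not in that window.

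The members differ in where they lie and in how much of each was read. In the mouse build GRCm38, Itga6 lies at chr2:71745616-71858416 on the plus strand, Itgb4 at chr11:115974709-116008412 (plus), Col17a1 at chr19:47646344-47692094 (minus) and Dst at chr1:33908225-34308661 (plus). Plec lies at chr15:76170974-76232574 (minus), Itgb1 at chr8:128685654-128733200 (plus), Itga3 at chr11:95044474-95076801 (minus), Lamb3 at chr1:193207699-193343878 (plus) and Lama3 on chromosome 18. Levels can be set against each other only per length, so the mean CPM of the 4 replicates was divided by the median length of the gene's annotated coding transcripts. On that scale Col17a1 was the most abundant, at 84.4 CPM per kilobase. Itga6 stood at 48.7, Itgb1 at 43.6 and Dst at 33.1 CPM per kilobase. Dst transcripts range from 2643 to 23279 bases, which puts its value anywhere between 23.9 and 210.2 CPM per kilobase, and the gene-level table does not separate its epithelial form from the others. The remaining members were lower, with Plec at 10.1, Itgb4 at 7.87, Lamb3 at 5.85, Lama3 at 4.96 and Itga3 at 2.34 CPM per kilobase. The chains of integrin alpha 6 beta 4, Itga6 and Itgb4, were thus unequal in mean reads. In RepI, however, they were nearly level (91.1 and 84.9 CPM), and on its plate C114 Itga6 was lower (70.3 against 100.6 CPM).

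Between the groups, no member was called. All 11757 genes that passed the filter were tested on counts summed per replicate (edgeR quasi-likelihood test, Benjamini-Hochberg adjustment, n = 2 against 2), with 0% of them under an adjusted p of 0.05 and 8.07% under an unadjusted p of 0.05. DESeq2 called 67 genes, none of them a member, and its lowest adjusted p for a member was 0.180. The median log2 fold change of the 9 members was 0.98, against 0.12 over all genes tested, with 7 members above 0 and 2 below. That median was 0.0139 without RepL and 0.22 with equal weight for each cell. The batch tag and the alternative batch tag of the labels disagree for C128 and C129, and with plates as units and either tag as a block no member was called. Among the members, 1 of 9 (Itgb4) was under an unadjusted p of 0.05. In 4 of 9 members, Itgb4, Plec, Lamb3 and Col17a1, both 38w replicates stood above both 38wUW replicates in CPM, which 12.6% of all tested genes did. Some cell type markers lay the same way. The 5 basal markers summed to 22393 and 6318 CPM in RepI and RepL against 2637 and 1858 CPM in RepM and RepN. The fibroblast markers summed to 62.7 and 21.2 against 16.4 and 8.27 CPM, but no single fibroblast gene lay that way. Dcn, most of the RepI sum, was 61.7 and 10.3 CPM in RepI and RepL against 10.4 and 4.71 CPM in RepM and RepN. Col1a1 and Lum overlapped too, and Col1a2 lay the other way (0 and 0 against 2.74 and 1.16 CPM). Of the basal markers, Krt14 was 19617 and 4626 CPM in the 38w replicates against 1809 and 825 CPM in the others. Krt5, a basal keratin, was 1988 and 977 against 429 and 407 CPM. Thbs1 lay the other way (24.7 and 49.8 against 84.3 and 83.7 CPM), and Trp63 and Ly6a overlapped. The sums of bulge, junctional zone, infundibular and duct, interfollicular, sebocyte and melanocyte markers overlapped too. The part of the markers in the differences of the members was not tested. No member stood below in the same way. Fewer cells of a type and less RNA per cell cannot be told apart in these sums. By the score classes defined below, basal-like cells were 24 of 70 in RepI and 24 of 75 in RepL. They were 15 of 82 in RepM and 10 of 83 in RepN. The whole basal-layer side did not lie that way, with 52.9% and 50.7% of cells in 38w against 53.7% and 60.2% in 38wUW. The basal markers also set these classes, and the part of cell numbers was not tested.

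Itgb4, the beta chain found only with alpha 6, had the largest difference of the 9. The 38w replicates held 84.9 CPM (RepI) and 64.3 CPM (RepL), the 38wUW replicates 21.9 CPM (RepM) and 16.6 CPM (RepN), with means of 74.6 ± 14.6 and 19.3 ± 3.77 (SD, n = 2 each). The groups did not overlap, and the log2 fold change was 2.20 (edgeR SE 0.89, adjusted p = 0.615). Within RepI, however, plate C114 gave 100.6 CPM and plate C118 gave 12.2, below both 38wUW replicates. With RepI from C118 only, the log2 fold change was 1.23 (edgeR adjusted p = 0.997), and without RepL, which leaves RepI as the only 38w sample, it was 2.48 (edgeR adjusted p = 0.0329). In that fit the spread came from the 38wUW replicates alone, RepI being assumed to vary like them, and 9.46% of the 12931 genes tested were called.

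Plec, which links integrin beta 4 to keratins, reached 225 CPM (RepI) and 187 CPM (RepL) in 38w, and 127.6 CPM (RepM) and 65.8 CPM (RepN) in 38wUW. Its log2 fold change was 1.34 (edgeR SE 0.86, adjusted p = 0.693). Here too the RepI plates lay on either side of the other group, at 261.6 CPM on C114 and 52.9 on C118. Lamb3, the beta chain of laminin-332, reached 38.4 CPM (RepI) and 27.9 CPM (RepL) in 38w, and 19.6 CPM (RepM) and 9.04 CPM (RepN) in 38wUW. The difference was 1.46 on the log2 scale (edgeR SE 0.93, adjusted p = 0.689), and C118 with 6.98 CPM was again lower than both 38wUW plates. With RepI from C118 only, Plec and Lamb3 each fell to a log2 fold change of 0.54.

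Col17a1, the transmembrane collagen, lay at 610 and 604 CPM in the 38w replicates and at 276 (RepM) and 378 CPM (RepN) in the others, a log2 fold change of 1.14 (edgeR SE 0.92, adjusted p = 0.745). Plate C118 (248 CPM) fell below both 38wUW replicates, as for the 3 genes above, and with RepI from C118 only the log2 fold change was 0.62.

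The other members overlapped between the groups. Itga6 was 91.1 CPM in RepI and 362 in RepL, on either side of RepM with 171 and RepN with 201. In RepL, 33.2% of its reads came from 1 cell. Dst was 362 and 851 CPM in 38w (RepI, RepL), and 281 and 728 CPM in 38wUW (RepM, RepN), so that each group held a high and a low replicate. Itgb1, the beta chain shared by many integrins, was 65.0 and 191 CPM in 38w against 131 and 280 in 38wUW, lowest on plate C114 with 31.6 CPM. Itga3 was low throughout, at 5.24 and 22.2 CPM in 38w and 11.7 and 4.71 CPM in 38wUW, and 1 cell gave 51.2% of its reads in RepL. Lama3, the alpha chain of laminin-332, was 35.5 and 35.2 CPM in 38w against 25.0 and 63.9 in 38wUW. Fitted log2 fold changes of these 5 ran from -0.44 (Itgb1) to 0.98 (Itga3), with edgeR adjusted p from 0.824 to 0.988. Their signs were not stable: without RepL those of Itga6, Dst and Itga3 were -0.69, -0.14 and -0.30. The plots of CPM by replicate show the same 4 genes apart and the other 5 mixed.

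**Figure D1:**
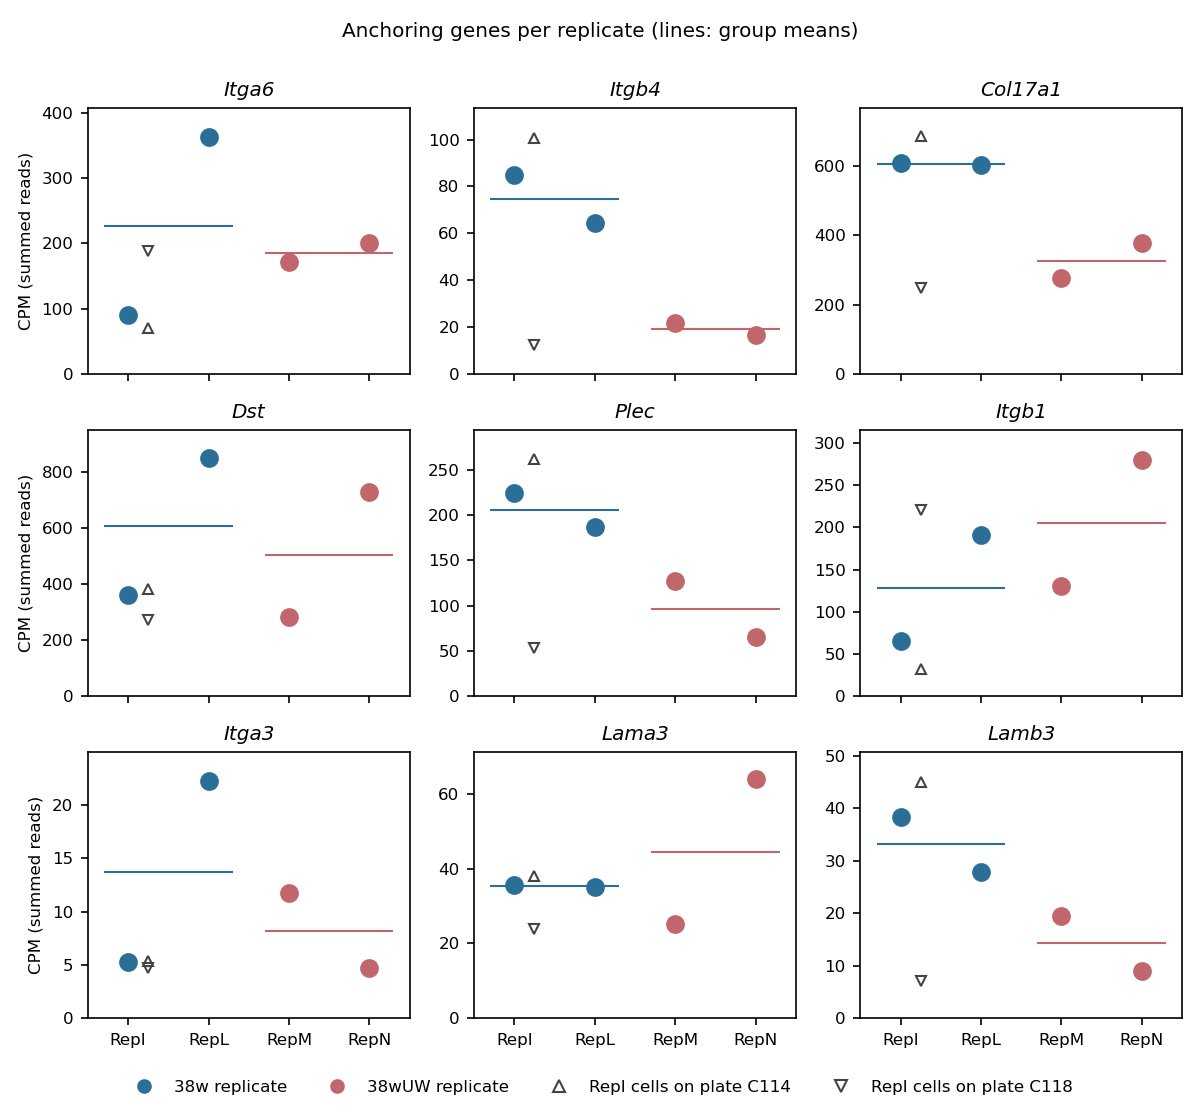
CPM (linear axis from 0) of each anchoring gene in the 4 replicates, blue for 38w and red for 38wUW, with lines at the group means and open triangles for the cells of RepI on each of its plates. In Itgb4, Col17a1, Plec and Lamb3 the blue points lie above the red ones, but the C118 triangle lies below both red points.

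**Figure D2:**
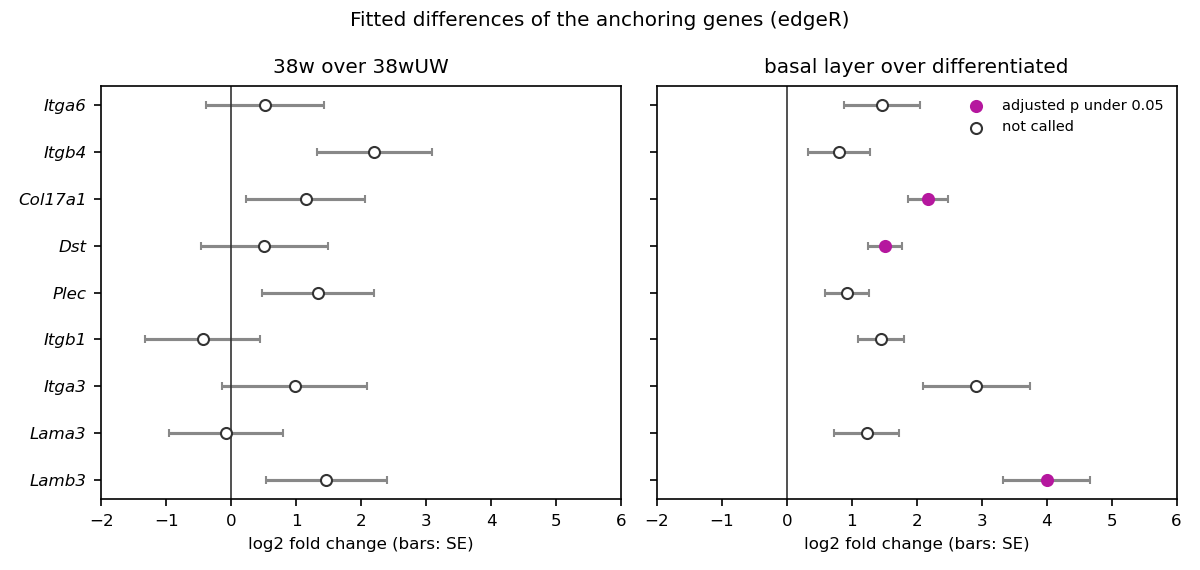
Log2 fold changes with standard errors from edgeR, for 38w over 38wUW (left) and for the basal layer over differentiated cells (right). On the left no gene was called, and on the right all 9 lie above 0 and the filled points, Col17a1, Dst and Lamb3, were called.

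The share of cells with a read was compared at an equal depth of 20000 randomly drawn reads, to which 277 of 310 cells qualified (7 cells of 38w and 26 of 38wUW were left out). For Itgb4 it was 47.1% (RepI) and 42.9% (RepL) in 38w, and 25.0% (RepM) and 22.7% (RepN) in 38wUW. Without thinning, the mean difference of 21.1 percentage points shrank to 7.61. Col17a1, Plec and Lamb3 also had higher shares in both 38w replicates, by 11.9, 12.3 and 7.24 percentage points on average. The percent of all genes whose shares lay apart in this way was not computed. The differences of the members moved with the depth and the libraries: that of Col17a1 was 5.01 at 10000 reads and 4.67 without RepM. That of Plec was 2.93 without thinning, 5.35 without RepN and 2.74 with RepI from C118 only. That of Lamb3 was 1.42 at 10000 reads and -5.99 with RepI from C118 only, and for Itgb4 the last setting gave 9.36. Itgb1 went the other way by mean, 39.0% ± 11.5 against 57.3% ± 17.0 (SD, n = 2 each), with overlapping replicates. Permuting the 4 replicates (exact, two-sided) can give no p below 0.3333, which Itgb4, Col17a1, Plec and Lamb3 had, and the other members had 0.667 or 1. At 20000 reads the plate C118 had 0 of 17 cells with a Lamb3 read, which allows a share of up to 17.6%. C114 had 35.3% (95% Wilson interval 23.6% to 49.0%). Without thinning, 6 of the 17 cells of C118 had a Lamb3 read. Reads are not independent molecules here, so intervals and limits cover counting error only.

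Each cell was given to 1 of 6 score classes by the mean z-score of 30 class markers, none of them a member, and the classes formed a basal-layer side (basal-like, bulge-like and junctional zone-like, 169 cells) and a differentiated side (infundibular and duct-like, interfollicular differentiated-like and sebocyte-like, 141 cells). The classes are ranges of a score: 40 cells (12.9%) lay within 0.25 of the border between the sides, and a split by keratins alone put 229 of 309 cells on the same side. Reads were summed per replicate and side and tested with the replicate as a block (10031 genes, 4 replicates on each side).

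All 9 members were higher on the basal-layer side, with a median log2 fold change of 1.47 against -0.02 over all genes, and 3 passed the test. Those 3 of 9 were Lamb3, Col17a1 and Dst, against 0.309% of all genes called higher on that side. DESeq2 called 5 of 9, adding Itgb1 and Itga3, against 3.43% of all genes. In 8 of 9 members the basal-layer side was higher in 4 of 4 replicates, as in 12.8% of all genes, and in Itga6 it was higher in 3 of 4. The calls rest on few samples: leaving out any 1 of the 4 replicates left 0 members called, as did leaving out plate C114, bulge-like cells or the replicate block, while all 9 stayed above 0. Those fits called few genes of any kind in either direction. There were 0 without RepI, plate C114, bulge-like cells or the block, 1 without RepL, 1 without RepM and 29 of 9805 without RepN. With plates as blocks in place of replicates, Dst was no longer called (edgeR adjusted p = 0.0942).

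Col17a1 was 907, 862, 443 and 519 CPM on the basal-layer side of RepI, RepL, RepM and RepN, and 276, 157, 80.7 and 91.4 CPM on the differentiated side. The sides did not overlap, and the log2 fold change was 2.18 (edgeR SE 0.31, adjusted p = 0.0357). Dst was 558, 1139, 379 and 935 CPM against 141, 349, 167 and 310 CPM, a log2 fold change of 1.51 (edgeR SE 0.26, adjusted p = 0.0455). RepL and RepN were the high replicates of Dst on both sides. Without the cell richest in the gene on each side of each replicate, Dst (log2 fold change 1.33, edgeR adjusted p = 0.0691) and Lamb3 (4.94, adjusted p = 0.0513) were no longer called.

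Lamb3 showed the widest gap of the 9. It was 65.6, 42.9, 34.99 and 13.3 CPM on the basal-layer side and 7.66, 1.89, 1.58 and 0.468 CPM on the differentiated side, and the log2 fold change was 3.999 (edgeR SE 0.66, adjusted p = 0.0389). On each side both 38wUW replicates had less Lamb3 than both 38w replicates. Lama3 was 46.4, 48.9, 34.0 and 77.7 CPM against 23.2, 11.3, 14.6 and 35.8 CPM, a log2 fold change of 1.23 (edgeR SE 0.50, adjusted p = 0.375).

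Among the integrins, Itga3 had the largest fitted difference, 2.91 on the log2 scale (edgeR SE 0.82, adjusted p = 0.194), from 9.70, 33.4, 17.3 and 6.34 CPM against 0.219, 2.83, 5.14 and 1.40 CPM. Its partner Itgb1 was 94.5, 264, 183 and 345 CPM against 31.7, 62.8, 69.2 and 148 CPM (log2 fold change 1.45, edgeR SE 0.35, adjusted p = 0.1292). Itga6 was higher on the basal-layer side in RepI (138 against 38.1 CPM), RepL (507 against 111) and RepM (279 against 45.1), but lower in RepN (170 against 263). In RepN the sebocyte-like cells carried the most, at 666 CPM, and 1 such cell held 13.2% of the replicate's Itga6 reads. Itgb4 differed by 0.80 (edgeR SE 0.48, adjusted p = 0.573), or by 1.59 without the richest cell on each side of each replicate (edgeR adjusted p = 0.287), and in RepN its sides were nearly level at 17.0 and 15.9 CPM. Plec, which is also used outside hemidesmosomes, differed by 0.93 (edgeR SE 0.34, adjusted p = 0.317).

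Whether the group difference itself differed between the sides was tested as an interaction in the same 8 libraries. No member was called (edgeR adjusted p = 0.99995 for each), nor any other gene, with 449 of 10031 genes under an unadjusted p of 0.05. The largest interaction of a member was that of Itga3, 2.31 on the log2 scale with an SE of 1.48.

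**Figure D3:**
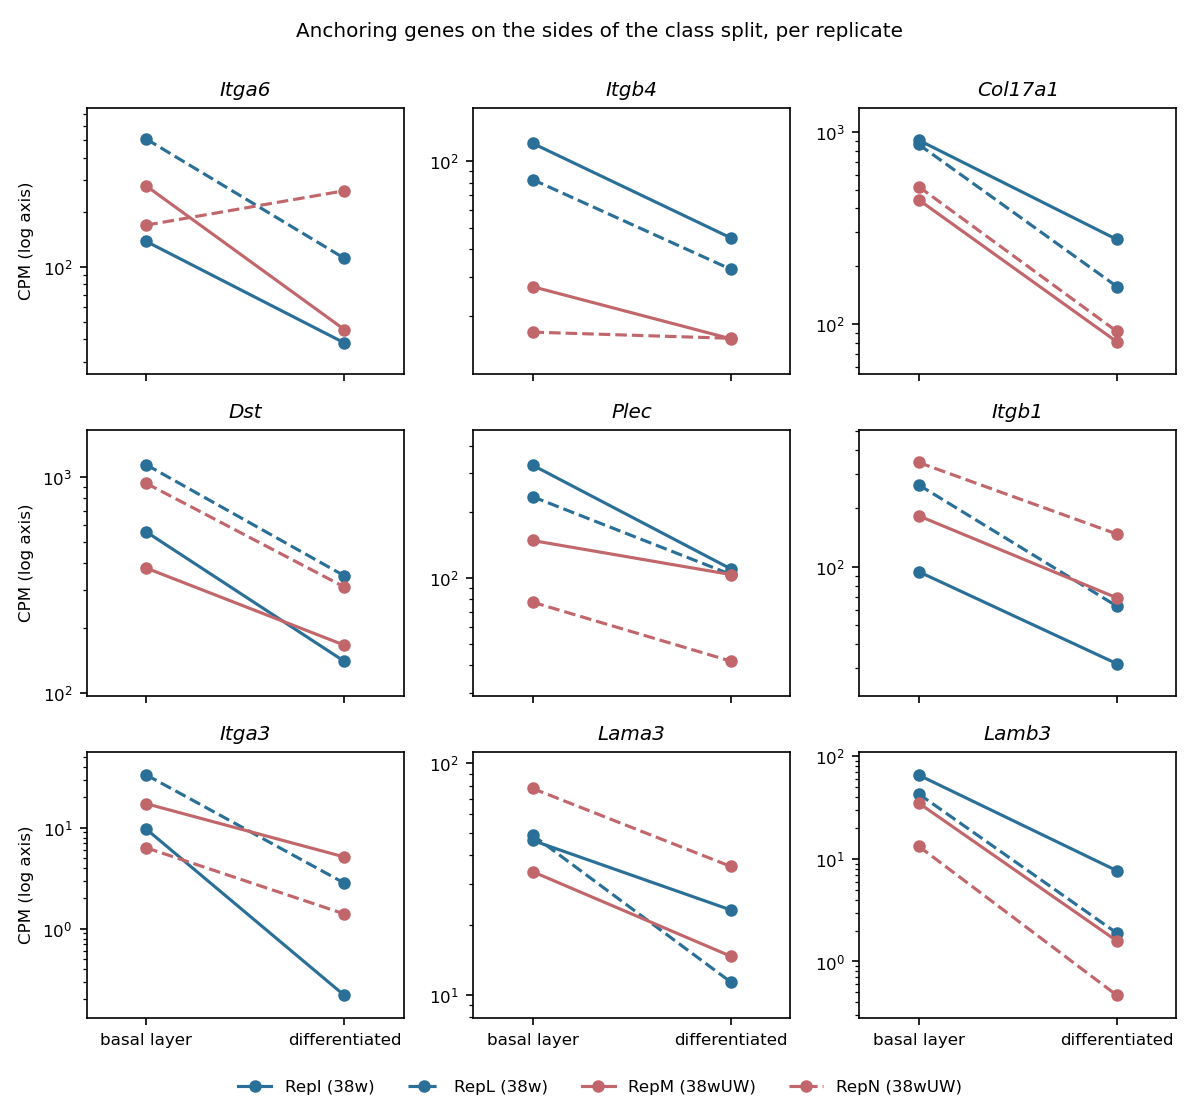
CPM (log axis) of each anchoring gene on the basal-layer and the differentiated side, 1 line per replicate, solid or dashed, blue for 38w and red for 38wUW. The lines fall from left to right in all replicates except Itga6 in RepN, and the sides do not overlap in Col17a1, Dst, Itga3 and Lamb3.

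Across the 6 classes, 7 members had their highest mean level in basal-like cells and 2, Lama3 and Lamb3, in bulge-like cells. The lowest was in infundibular and duct-like cells for 5 members and in interfollicular differentiated-like cells for 4. Neighbours in these orders mostly did not differ beyond their spread: in 42 of 45 neighbouring pairs the replicates overlapped. Only sebocyte-like over junctional zone-like in Dst, junctional zone-like over infundibular and duct-like in Itga3, and the same pair in Lama3, did not overlap.

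Col17a1 ran from 816 ± 187 CPM in basal-like and 784 ± 490 in bulge-like cells down to 49.8 ± 60.3 in infundibular and duct-like cells (SD, n = 4). Between them stood junctional zone-like cells with 316 ± 256 CPM (n = 3), sebocyte-like cells with 290 ± 219 and interfollicular differentiated-like cells with 203 ± 110 (n = 4). Junctional zone-like cells, the compartment where Lrig1 stem cells sit, thus had mean Col17a1 closer to the differentiated classes than to the other basal-layer ones, and their replicates, from 124 to 606 CPM, lay below all basal-like ones, from 628 to 989 CPM, but overlapped those of the other 4 classes. Their leading genes were mixed, with the duct markers Cst6 and Defb6 beside Lrig1.

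Sebocyte-like cells had higher mean levels of several members than the other differentiated classes. Dst was 527 ± 105 CPM there, against 229 ± 56.4 in interfollicular differentiated-like and 138 ± 134 in infundibular and duct-like cells. Itgb1 was 338 ± 260 CPM there, against 34.7 ± 32.3 and 52.2 ± 68.9, and for both genes the replicates did not overlap. Its mean is raised by RepI, with 725 CPM from 3 cells, beside 193, 176 and 258 CPM in RepL, RepM and RepN. Itga6 was 247 ± 280, against 72.2 ± 45.2 and 90.6 ± 129.4 (SD, n = 4 each), and that mean rests on RepN with 666 CPM. No test was run between single classes. Lamb3 went the furthest down: none of the 52 infundibular and duct-like cells held a read of it, and 0 of their 48 thinned cells allows a share of up to 6.25%. Lama3 in interfollicular differentiated-like cells was below its basal-like level in RepI (31.9 against 64.8 CPM), RepL (15.1 against 60.5) and RepM (31.8 against 64.2) and above it in RepN (97.4 against 13.1), where that class held 7 cells. Lamb3 was 3.08 ± 5.06 CPM there against 41.2 ± 29.5.

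**Figure D4:**
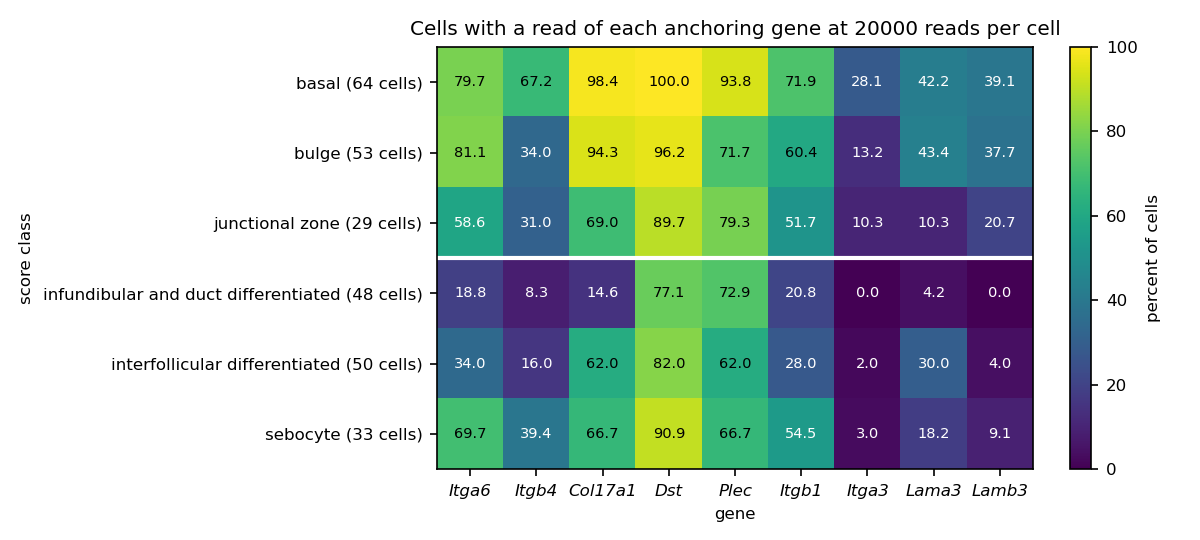
Percent of cells with at least 1 read of each anchoring gene after thinning to 20000 reads (colour and printed value), by score class, with the basal-layer classes above the white line. Dst had a read in 100% of basal-like cells and 77.1% of infundibular and duct-like cells, whereas Col17a1 went from 98.4% to 14.6% and Itgb4 from 67.2% to 8.33%.

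Seen cell by cell, partners of the same complex were often not read together. At 20000 reads a cell held reads of a median of 4 of the 9 members, 6 on the basal-layer side and 3 on the differentiated side. Reads of all 9 were found in 4 of 277 cells, and of none in 6, all 6 on the differentiated side. Itga6 and Itgb4 were both found in 63 of 277 cells (22.7%, 95% Wilson interval 18.2% to 28.03%), 39.4% of the cells with Itga6 and 66.3% of those with Itgb4. Col17a1 and Dst were both found in 185 cells (66.8%), that is in 95.9% of the cells with Col17a1 and 74.3% of those with Dst. Lama3 and Lamb3 were both found in 26 cells, 25 of them on the basal-layer side. At this depth a missing read does not show a missing transcript.

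The members varied together within plates. Over the thinned cells of each plate (17 to 75 cells), the mean Spearman correlation over the 5 plates was above 0 for 36 of 36 pairs, with a median of 0.21 and a range of 0.03 to 0.58. It was above 0 on every plate for 16 of the 28 pairs without Lamb3. No thinned cell of C118 had a read of Lamb3, so its 8 pairs have no value on that plate and entered the means as 0 there. Over the other 4 plates those 8 were all above 0, from 0.14 to 0.45, and the median of the 36 pairs was then 0.23. The highest was Col17a1 with Dst (0.58), 2 proteins of the same hemidesmosome, followed by Itgb4 with Col17a1 and Itga6 with Col17a1 (0.39 each), and Col17a1 with Lamb3 was 0.45 over its 4 plates. Itga6 with Itgb4, the chains of 1 integrin, had 0.06. Without thinning that pair had 0.18 and was above 0 on 4 plates, and Col17a1 with Dst had 0.71. The part of read depth in this order was not tested. Within basal-layer cells alone the median of the pairs was 0.13, and some pairs had a mean below 0. The lowest there were Itga6 with Itgb4 (-0.14) and Itga6 with Itga3 (-0.11). Cells of a plate share library and depth, and these values are a description with no p. Pairs of other genes were not computed, so the count of pairs above 0 has no background to be set against.

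**Figure D5:**
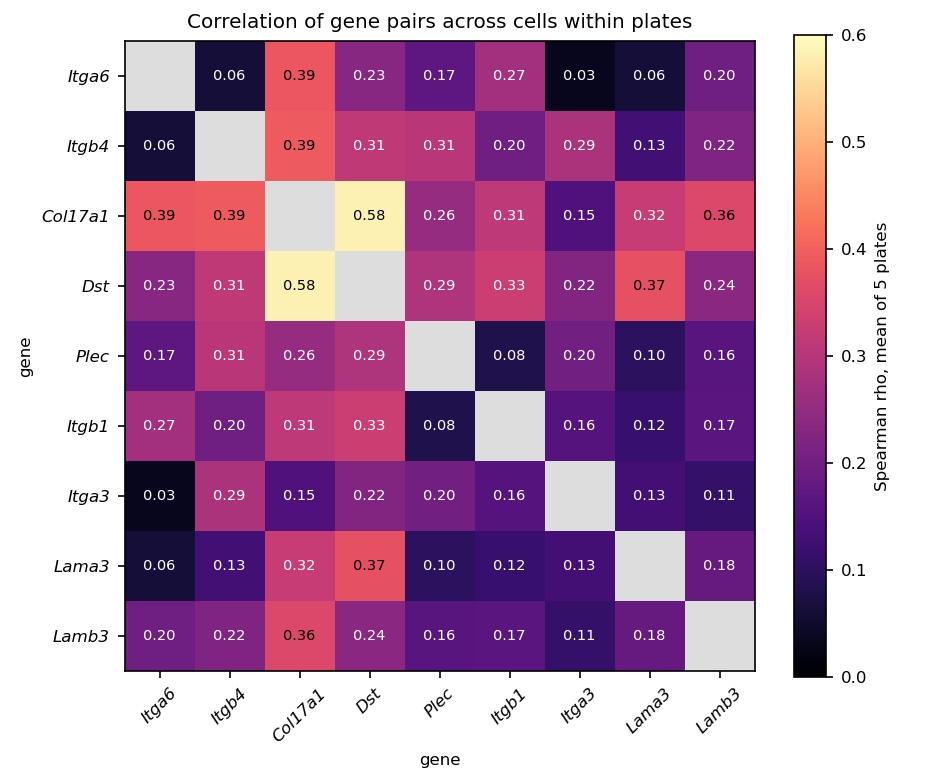
Spearman correlation of each pair of anchoring genes across thinned cells, taken within each plate and averaged over the 5 plates (colour and printed value, diagonal left grey). The brightest cell is Col17a1 with Dst at 0.58, and no pair is below 0.

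Of 1201 other genes read in at least 30% of the thinned cells of every plate, those most like the summed log level of the members were Krt5 (0.76), Slc6a6 (0.67), Cav1 (0.66), Tgfbi (0.59), Fth1 (0.59), Tspo (0.53), S100a6 (0.51), Krt15 (0.51), S100a10 (0.48) and Ftl1 (0.48). The median over those genes was 0.05. Krt5 is a keratin of the basal layer, and Krt5 and Krt15 are also markers used for the classes. At the other end stood Fabp5 (-0.61), Gltp (-0.58), Dsg1a (-0.58), Calm4 (-0.50) and Dsg1b (-0.49). The desmoglein 1 genes encode cadherins of the desmosomes between suprabasal cells, and as near copies they may share reads.

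Other genes of the basement membrane were followed in a list of 16, of which 14 were tested between the groups and 12 between the sides. Between the groups 0 of 14 were called, 14 were above 0 and the median log2 fold change was 0.76, against 0.12 over all genes. Col7a1, the collagen of the anchoring fibrils that fasten the basement membrane to the dermis, had the largest value, 2.86 (edgeR SE 1.07, adjusted p = 0.615), followed by Bcam, a laminin receptor, at 1.88 (edgeR SE 1.04, adjusted p = 0.655). None was below 0, and Lama5 stood at 0.03. Between the sides, 1 of 12 was called: Lama5, the alpha chain of laminin-511, with a log2 fold change of 3.53 (edgeR SE 0.59, adjusted p = 0.0396). The list had 11 of 12 above 0 and a median of 1.99 on that scale.

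Of 13 integrin partners and focal adhesion genes, 12 were tested in each comparison and 0 were called. Between the groups the largest log2 fold changes were those of Pxn (2.20, SE 1.22), an adaptor of focal adhesions, and Ilk (1.87, SE 1.03), a pseudokinase bound to beta integrins, and the lowest those of Vcl (-1.34, SE 0.90) and Itga2 (-0.98, SE 0.90). Between the sides Itga2, the collagen-binding partner of Itgb1, had a log2 fold change of 5.19 (edgeR SE 0.99, adjusted p = 0.0583), followed by Parva with 1.75 (SE 0.84). Fermt2 (-1.09, SE 0.98) and Vcl (-0.41, SE 0.67) were on the other side of 0. The median of the 12 was 0.83 between the groups and 0.73 between the sides on the log2 scale.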

How the data were processed

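The authors mapped the reads with Salmon 0.13.1 to an Ensembl 101 mouse transcriptome (mm10, GRCm38), and deposited estimated counts by gene for every cell, without normalization (3.60% of values not whole). These were rounded here, and each cell was matched to its plate, replicate and group by its label. Counts were summed per replicate, or per replicate and side, and compared by edgeR 4.0.16, run in R 4.3.3 (TMM, filterByExpr, quasi-likelihood test, adjusted p threshold 0.05), with DESeq2 1.42.0 as an alternative. The block pairs the sides of a replicate because both come from the same cells' source and plates. Scores used log counts per 10000 and z-scores over all cells. Cells were thinned to 20000 reads for shares and correlations. The scripts were tested on simulated counts with a fixed spread and no plate effect, unlike these data. That test does not show how the fits perform at the spread of these data. Shares were recomputed without thinning, at 10000 reads, and with plates or replicates left out. All members, and from each gene list the called genes or otherwise the 2 largest changes in each direction, are named. Results of some genes are not reported here. The members and lists were chosen with earlier results of these data known. PCR duplicates cannot be told from molecules, so the uncertainty can be larger than the counting error of the reads. P-values measure the spread between the labelled replicates.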

Additional observations from a re-analysis of the deposited data

How the results depend on the processing

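Between the groups, the count of anchoring genes called stayed at 0 under 18 of 19 alternatives, and leaving out 1 replicate gave 0 to 1 called. The 1 was Itgb4 without RepL, where 1223 of 12931 genes (9.46%) were called, against 125 without RepI. Their median log2 fold change of 0.98 fell to 0.22 with equal weight per cell, and ran from 0.0139 to 1.18 when 1 replicate was left out. Signs turned under 14 of 169 gene and setting pairs. Lama3 turned from -0.08 to 0.065 with RepI from C114 only, to 0.14 with plates as units and the alternative batch tag as a block, to 0.18 with equal weight, to 0.43 in thinned cells, to 0.020 in basal-layer cells, and ran from -0.58 to 0.73 with 1 replicate left out. Itgb1 turned to 0.26 with RepI from C118 only, and ran from -1.32 to 0.20 with 1 replicate left out (0.13 without RepI). Itga6 turned to -0.77 in differentiated cells, where Itga3 and Lamb3 did not pass the filter, and ran from -0.69 (without RepL) to 1.19 with 1 replicate left out, as Dst did from -0.14 to 1.34 and Itga3 from -0.30 to 1.80. The cause was not tested.

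Between the sides, no sign turned in 179 gene and setting pairs. The count of 3 called became 5 with DESeq2, 0 without the replicate block, 0 without bulge-like cells, 0 without plate C114 and 1 without the cell richest in each gene, the last pair chosen after seeing the data. It was 2 under 6 alternatives: Dst was lost with plates as blocks (edgeR adjusted p = 0.0942) and without ribosomal protein and mitochondrial genes (0.0530), Lamb3 with z-scores within plates (0.0765), away from the border (0.0563) and without sebocyte-like cells (0.0579), and both in the keratin split (0.0585 and 0.0530), where Itgb1 was gained. Leaving out 1 replicate gave 0 called each time, with a median from 1.26 to 1.59. That median moved to 2.26 with the keratin split and to 1.87 without sebocyte-like cells. DESeq2 called 716 genes against 64 by edgeR. The settings with 0 members called had 0 to 29 genes called in all. The median correlation of the pairs was 0.31 without thinning and 0.13 in basal-layer cells. Itga3, with 305 reads in all, and Lamb3, with 759, are limited by depth.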
